A study of Mus musculus with 16 samples.

Results

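The 10 genes described here are the main cytosolic and mitochondrial heat shock genes of the mouse: Hspa1a, Hspa1b, Hsph1, Dnajb1, Hspb1, Hspa8, Hsp90aa1, Hspd1, Hspe1 and Bag3. They were taken by gene symbol, not by a measured value, from the 53801 Ensembl gene IDs of a table of liver RNA-seq read counts. Earlier results of these data were known when they were chosen. The 16 livers fall into 4 groups of 4, and all of them have a count for each gene. The high-fat knockouts carried a knockout of Degs1 in the liver and were fed a high-fat diet, the high-fat controls were labelled control and fed the same diet, the chow knockouts carried the knockout on normal chow, and the chow controls were controls on normal chow. Degs1 encodes dihydroceramide desaturase, the enzyme that makes ceramide from dihydroceramide, and the comparisons ask what its loss and the diet do to the liver. The sources used here do not give the Cre driver, strain, sex, age or time on the diet.

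Heat shock proteins are chaperones: they bind unfolded proteins and help them to fold, to be kept apart or to be degraded. In the cytosol HSP70 proteins work in an ATP cycle that J-domain proteins start and nucleotide exchange factors end, and HSP90 takes over some of their clients. In the mitochondrial matrix the chaperonin HSP60 and its lid HSP10 fold imported proteins. The transcription factor HSF1 drives the stress-inducible genes by binding heat shock elements, inverted repeats of GAA, in their promoters.

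Total counts per library ran from 11938596 to 23250885, and all 10 genes passed the filter on low counts that left 14351 genes for testing. Levels are CPM, read counts relative to the size of the library, with library sizes scaled by TMM. Differences are log2 fold changes from edgeR's quasi-likelihood test with Benjamini-Hochberg adjustment over all genes tested, and a gene is called to have risen or fallen at an adjusted p under 0.05. Degs1 was lower in all knockout livers than in all control livers on the same diet, at 31.3 ± 7.01 CPM in high-fat knockouts against 73.4 ± 18.9 CPM in high-fat controls, and at 38.0 ± 1.65 CPM in chow knockouts against 84.7 ± 3.13 CPM in chow controls (SD, n = 4 each). Each liver has its own animal number in its label and nothing ties livers to a batch, but the numbers of the 4 groups do not overlap, so whatever goes with animal number cannot be told apart from genotype and diet. High-fat control 3 stood apart: it was the highest of the 16 livers for 19.9% of all genes tested and the lowest for 21.6%. These are whole livers, so fewer cells of a type and less RNA per cell cannot be told apart.

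The promoters of 8 of the 10 genes were in a RefSeq table for GRCm38.p6 that holds 300 bases for each start, 250 before and 50 after it, Hspa8 and Hsp90aa1 being the other two. Each was searched for a 2-unit heat shock element, GAANNTTC or TTCNNGAA, and for a 3-unit element, GAANNTTCNNGAA or its reverse complement TTCNNGAANNTTC, which contains the 2-unit forms. The 2-unit letters read the same on both strands. Of the 32817 promoters in the table, 15.1% held a 2-unit element and 0.603% a 3-unit element. Of the 11 promoters listed for these 8 genes, 8 held a 2-unit element and 4 a 3-unit element. By gene, the 3-unit element was in Hsph1, Hspd1 and Hspe1, the 2-unit element was also in Hspa1a, Hspa1b, Hspb1 and Bag3, and neither was in the windows of Dnajb1. The sequences below are shown because they hold these letters in the genes whose levels are described next, with the matching letters in capitals.
Hspa1b promoter, chr17:34959189-34959488, minus strand: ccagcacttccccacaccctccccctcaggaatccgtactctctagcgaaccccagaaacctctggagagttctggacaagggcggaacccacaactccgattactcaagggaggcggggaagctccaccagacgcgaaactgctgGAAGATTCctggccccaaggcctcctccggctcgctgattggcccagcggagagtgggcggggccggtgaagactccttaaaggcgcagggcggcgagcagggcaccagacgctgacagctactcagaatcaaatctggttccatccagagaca
Hspa1a, chr17:34972223-34972290, minus strand: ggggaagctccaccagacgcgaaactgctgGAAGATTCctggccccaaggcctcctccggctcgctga
Hsph1, chr5:149636266-149636330, minus strand: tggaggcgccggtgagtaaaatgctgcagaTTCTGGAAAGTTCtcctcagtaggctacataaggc
Hspb1, chr5:135887772-135887859, plus strand: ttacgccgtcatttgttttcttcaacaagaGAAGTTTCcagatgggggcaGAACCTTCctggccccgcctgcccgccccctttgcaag
Hspe1, chr1:55088029-55088106, plus strand: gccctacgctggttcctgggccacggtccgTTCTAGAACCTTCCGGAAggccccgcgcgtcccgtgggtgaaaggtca
The promoters of Hspa1a and Hspa1b differ at 4 of 300 bases, and the element lies at 104 to 97 bases before the start in both. The Hspd1 gene runs the other way from Hspe1, and the same stretch of chromosome 1 read on its minus strand is the Hspd1 element, so these entries are not separate observations. The listed Hsph1 promoters likewise overlap and hold the same element, and those of Hspa1a and Hspa1b are near copies. The counts by promoter are therefore higher than the number of separate sites.

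Per length of transcript, the constitutive HSP70 gene Hspa8 was the most abundant of the 10, at a mean of 155.7 CPM per kb over the 16 livers, followed by Hspd1 at 105.4, Hspe1 at 43.8 and Hsp90aa1 at 35.2 CPM per kb. Hspb1 was at 12.4 CPM per kb, and Bag3 at 7.65, Dnajb1 at 7.36 and Hsph1 at 7.28 CPM per kb. The stress-inducible HSP70 genes were lowest, with Hspa1b at 2.43 and Hspa1a at 0.237 CPM per kb. Most neighbours in this order kept it in at least 13 of the 16 livers. Bag3, Dnajb1 and Hsph1 did not differ beyond their spread: Bag3 was above Dnajb1 in 10 of 16 livers, and Dnajb1 above Hsph1 in 10 of 16. Of the stretches of 50 bases in each transcript, 66.3% in Hspa1a and 62.3% in Hspa1b also occur in other genes. The shares were 50.1% for Hspb1, 47.5% for Hsp90aa1, 42.1% for Hspd1, 39.4% for Hspa8, 22.8% for Hspe1 and at most 0.412% for the rest. How such reads were counted is not given, so these levels and their order are uncertain, as they also are through the exon lengths used.

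**Figure D1:**
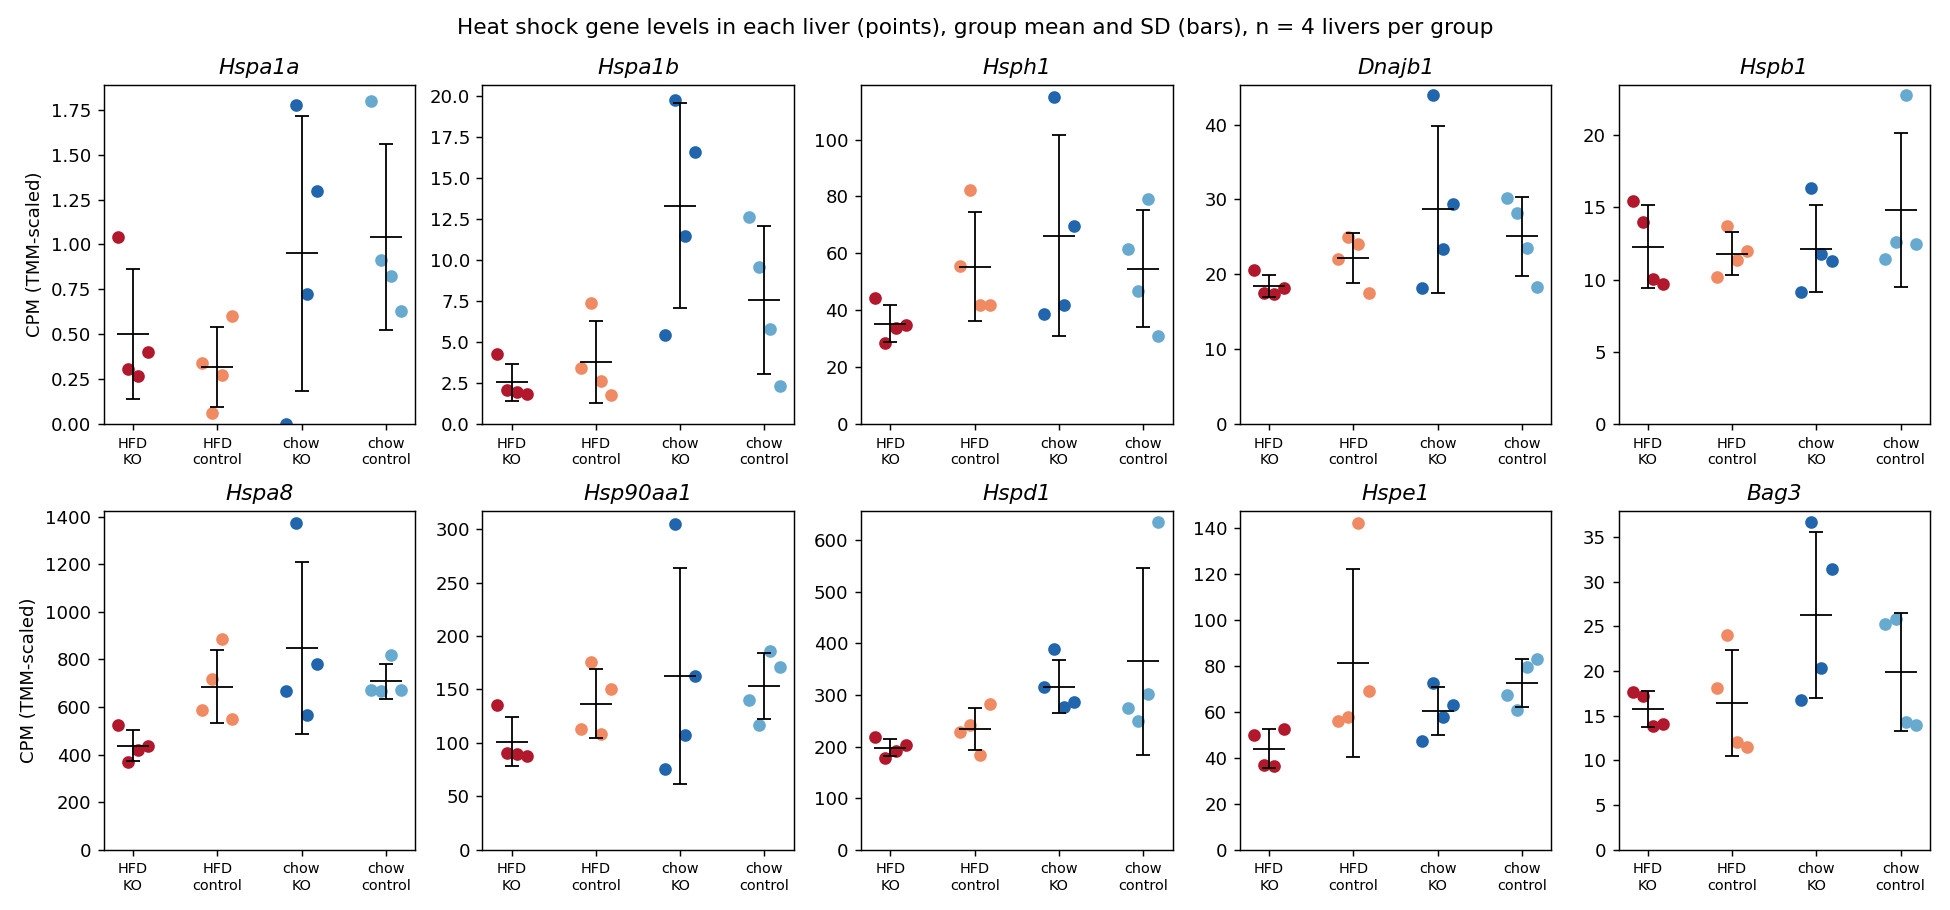
Each point is the CPM of a gene in a single liver, with TMM-scaled library sizes and axes that start at 0, and the bars give the mean and SD of the 4 livers of a group. The high-fat knockouts sit lowest for Hspa8, at 368 to 523 CPM, and the chow knockouts spread most for Hsp90aa1, from 75.9 to 305.1 CPM.

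Of the 10 heat shock genes, 9 had a fold change below 0 in high-fat knockouts against chow knockouts, as did 48.1% of all genes tested. Hspa1b and Hspa8 passed the test, where 5.35% of all genes fell. Hspa1b fell by 2.39 on the log2 scale and Hspa8 by 0.96. None of the 10 passed it in the other comparisons between groups or in the interaction. The members' values follow by their roles in the chaperone cycle.

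Hspa1b encodes the stress-inducible cytosolic HSP70. It had 4.26, 2.06, 1.97 and 1.86 CPM in high-fat knockouts 1 to 4, and 3.39, 7.39, 2.64 and 1.75 CPM in high-fat controls. It had 5.46, 19.8, 11.48 and 16.6 CPM in chow knockouts 1 to 4, and 12.7, 9.59, 5.80 and 2.30 CPM in chow controls. All high-fat knockouts were below all chow knockouts, whereas the controls of the 2 diets overlapped, and so did knockouts and controls on each diet. The level was 2.54 ± 1.15 CPM in high-fat knockouts and 13.3 ± 6.26 CPM in chow knockouts (SD, n = 4 each), a log2 fold change of -2.39 ± 0.515 (SE, adjusted p = 0.0101 by edgeR). High-fat diet in controls gave -0.99 ± 0.502 (adjusted p = 0.325), knockout on high-fat diet -0.56 ± 0.520 (0.526) and knockout on chow 0.83 ± 0.482 (0.578). The call in knockouts held in all 16 fits that left out a single liver, with log2 fold changes of -2.75 to -2.13 and adjusted p of 0.00573 to 0.0429.

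Hspa1a encodes a nearly identical HSP70 and lies beside Hspa1b on chromosome 17 (GRCm38, 34969190 to 34972156, against 34956436 to 34959238 for Hspa1b, both on the minus strand). Of all stretches of 50 bases in its transcripts, 66.3% also occur in other genes, Hspa1b above all. How the authors' counting treated such reads is not given, so its level is uncertain. The same holds for Hspa1b, with 62.3% of its stretches shared with Hspa1a. Adding the counts of both genes would not restore reads left uncounted because they map to both. The counts of Hspa1a were 20, 6, 5 and 6 in high-fat knockouts 1 to 4, and 5, 1, 4 and 12 in high-fat controls. They were 0, 30, 12 and 19 in chow knockouts 1 to 4, and 26, 12, 16 and 14 in chow controls. The 0 in chow knockout 1 allows up to 3 counts, or 0.293 CPM, by counting error alone. All high-fat controls were below all chow controls in CPM, with 0.318 ± 0.221 and 1.04 ± 0.518 CPM (SD, n = 4 each), but the log2 fold change of -1.64 ± 0.755 had an adjusted p of 0.277 by edgeR. Hspa1a made up 9.84% of the counts on both genes over all livers. With the counts of both genes added, the level was 3.04 ± 1.51 CPM in high-fat knockouts and 14.3 ± 7.03 CPM in chow knockouts (SD, n = 4 each), and the log2 fold change was -2.23 (adjusted p = 0.0113 by edgeR).

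Hspa8, the constitutive HSP70 (HSC70) that folds new proteins and uncoats clathrin vesicles, had 523, 368, 420 and 437 CPM in high-fat knockouts 1 to 4, and 590, 719, 887 and 549 CPM in high-fat controls. It had 669, 1375, 569 and 782 CPM in chow knockouts, and 673, 667, 819 and 671 CPM in chow controls. All 4 high-fat knockouts were below all of the other 12 livers, and chow knockout 2 was far above the rest. The level was 437 ± 64.8 CPM in high-fat knockouts and 849 ± 362 CPM in chow knockouts (SD, n = 4 each), a log2 fold change of -0.96 ± 0.229 (SE, adjusted p = 0.0157 by edgeR). Without chow knockout 2 the log2 fold change was -0.61 and the adjusted p 0.0677, and without high-fat knockout 2 they were -0.87 and 0.0657 (edgeR). The call was also lost with log2 Malat1 CPM as a covariate, at -0.67 and an adjusted p of 0.101 (edgeR). Malat1, an RNA kept in the nucleus, was at 2949 to 3512 CPM in high-fat knockouts and 690 to 1360 CPM in chow knockouts. These ranges do not overlap, and the fit takes its Malat1 term from the spread within the 4 groups and extends it over this gap. That spread was widest in high-fat controls, with 180 CPM in high-fat control 3 and 1021 to 4028 CPM in high-fat controls 1, 2 and 4. In knockouts Malat1 and diet therefore cannot be told apart. Knockout on high-fat diet gave -0.65 ± 0.228 for Hspa8 (adjusted p = 0.131 by edgeR), although the groups did not overlap. The interaction, by which the knockout difference on high-fat diet exceeds that on chow, was -0.91 ± 0.322 (adjusted p = 0.307 by edgeR). Part of the Hspa8 transcript (39.4% of its stretches of 50 bases) also occurs in other genes, mostly the pseudogene Gm15459, which had 1138 counts over all livers beside 175972 for Hspa8.

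For the co-chaperones of HSP70 among the genes described here (Dnajb1, Hsph1 and Bag3), no difference passed the test by edgeR. Dnajb1, the HSP40 protein that brings clients to HSP70, had 20.6, 17.5, 17.4 and 18.1 CPM in high-fat knockouts 1 to 4, and 22.0, 25.0, 24.0 and 17.5 CPM in high-fat controls. It had 18.1, 44.0, 23.3 and 29.4 CPM in chow knockouts, and 30.2, 28.3, 23.6 and 18.4 CPM in chow controls. Chow knockout 2 was the highest liver and chow knockout 1 lay among the high-fat knockouts. The log2 fold change of high-fat diet in knockouts was -0.64 ± 0.221 (adjusted p = 0.0673 by edgeR), and between -0.26 and 0.20 in the other comparisons between groups. Without chow knockout 2 it was -0.35.

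Hsph1 (HSP110), a nucleotide exchange factor of HSP70, had 44.3, 28.5, 33.7 and 34.8 CPM in high-fat knockouts 1 to 4, and 55.6, 82.2, 41.7 and 41.7 CPM in high-fat controls. It had 38.6, 114.9, 41.9 and 69.5 CPM in chow knockouts, and 61.6, 46.8, 79.1 and 30.8 CPM in chow controls. The groups overlapped in each comparison. High-fat diet in knockouts gave -0.91 ± 0.329 (adjusted p = 0.0807 by edgeR) and knockout on high-fat diet -0.65 ± 0.328 (adjusted p = 0.26 by edgeR). Without chow knockout 2 the diet value was -0.49, and without high-fat control 2 the knockout value was -0.40.

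Bag3, a nucleotide exchange factor that links HSP70 to selective autophagy, had 17.7, 17.2, 13.9 and 14.1 CPM in high-fat knockouts 1 to 4, and 18.1, 24.1, 12.1 and 11.6 CPM in high-fat controls. It had 16.8, 36.7, 20.4 and 31.5 CPM in chow knockouts, and 25.3, 25.9, 14.3 and 14.02 CPM in chow controls. The control groups each held a pair of high and a pair of low livers. High-fat diet in knockouts gave -0.75 ± 0.279 (adjusted p = 0.0897 by edgeR).

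Hsp90aa1, the inducible cytosolic HSP90, had 135.2, 90.4, 89.9 and 88.2 CPM in high-fat knockouts 1 to 4, and 112.7, 175.7, 108.2 and 150.2 CPM in high-fat controls. It had 75.9, 305.1, 107.5 and 162.3 CPM in chow knockouts, and 140.1, 117.2, 185.7 and 170.9 CPM in chow controls. The chow knockouts held both the highest and the lowest liver of all 16. High-fat diet in knockouts gave -0.69 ± 0.314 (adjusted p = 0.155 by edgeR), and without chow knockout 2 it was -0.18.

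Hspb1, a small heat shock protein that holds unfolded proteins without ATP, had fold changes near 0. Its levels were 15.4, 13.99, 10.02 and 9.72 CPM in high-fat knockouts 1 to 4, and 10.2, 13.7, 11.4 and 12 CPM in high-fat controls. It had 9.17, 16.4, 11.8 and 11.3 CPM in chow knockouts, and 11.4, 12.6, 22.8 and 12.5 CPM in chow controls. The groups overlapped in each comparison, and the log2 fold changes lay between -0.33 and 0.06, with adjusted p of at least 0.512 by edgeR.

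**Figure D2:**
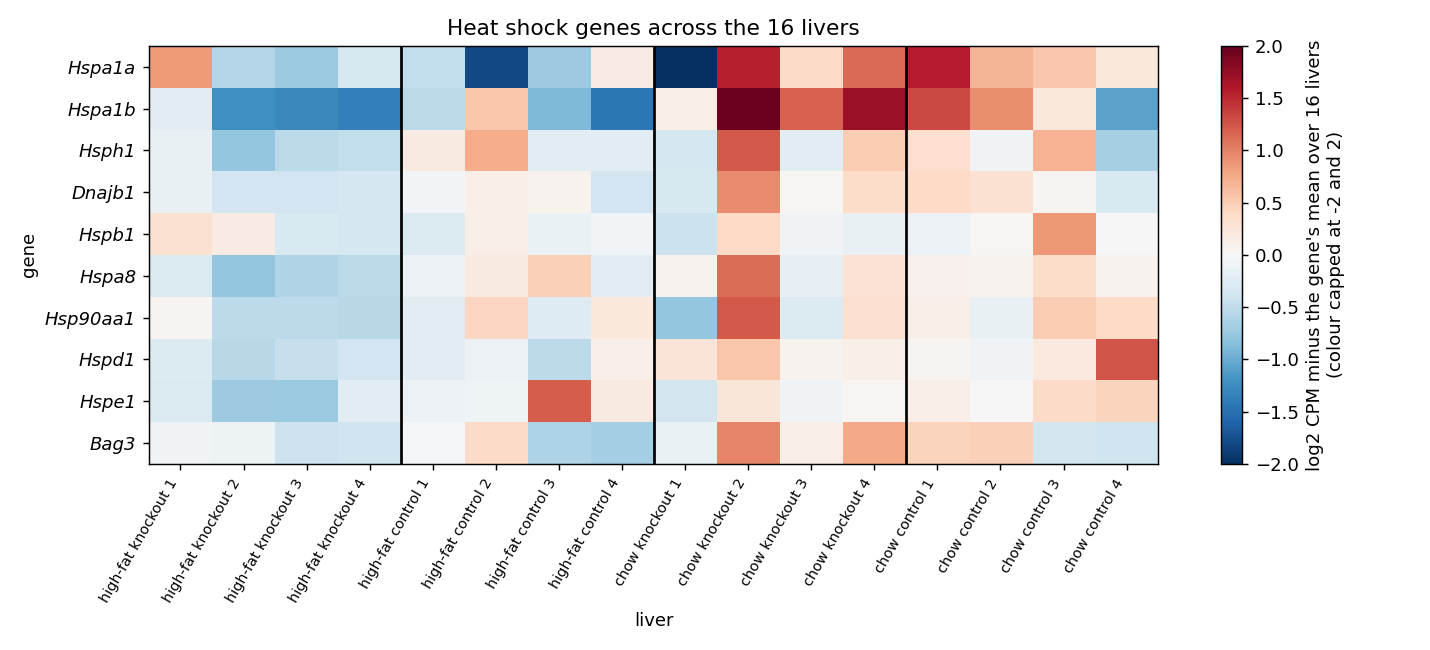
Rows are the 10 genes and columns the 16 livers by group, and the colour is the log2 CPM minus the gene's mean over all livers, capped at -2 and 2. Chow knockout 2 is above the mean in all 10 genes, and high-fat knockouts 3 and 4 are above it in 0 of them.

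Hspd1 encodes HSP60 and Hspe1 its partner HSP10. Hspd1 had 218.5, 178.6, 191.7 and 202.9 CPM in high-fat knockouts 1 to 4, and 227.4, 242.6, 183.6 and 283.0 CPM in high-fat controls. It had 314.5, 388.3, 277.0 and 285.6 CPM in chow knockouts, and 274.3, 250.2, 301.2 and 634.3 CPM in chow controls. All high-fat knockouts were below all chow knockouts, and chow control 4 was more than any other liver. High-fat diet in knockouts gave -0.68 ± 0.237 (adjusted p = 0.0716 by edgeR), and high-fat diet in controls -0.64 ± 0.237 (adjusted p = 0.17 by edgeR). Without chow control 4 the value in controls was -0.21.

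Hspe1 had 49.9, 36.8, 36.3 and 52.5 CPM in high-fat knockouts 1 to 4, and 56.0, 57.8, 142.1 and 69.1 CPM in high-fat controls. It had 47.5, 72.5, 57.9 and 63.0 CPM in chow knockouts, and 67.2, 60.7, 79.7 and 82.9 CPM in chow controls. All high-fat knockouts were below all high-fat controls, where high-fat control 3 was the highest liver of all 16. Knockout on high-fat diet gave -0.89 ± 0.248 (adjusted p = 0.103 by edgeR, and 0.0299 by DESeq2), and without high-fat control 3 the edgeR value was -0.46. High-fat diet in knockouts gave -0.46 ± 0.247 (adjusted p = 0.232 by edgeR).

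The pair did not move together in every liver. The ratio of Hspd1 to Hspe1 CPM was 3.78 to 6.62 in 14 livers, 1.29 in high-fat control 3 and 7.65 in chow control 4. In chow control 4 Hspa9, the mitochondrial HSP70, was also high at 971.4 CPM, where chow controls 1, 2 and 3 had 580.1 to 619.3 CPM, while Hspe1 was at 82.9 CPM. In high-fat control 3 Malat1 was at 180 CPM, while high-fat controls 1, 2 and 4 had 1021 to 4028 CPM, and that liver was the highest of 16 for 12 of 19 genes of mitochondrial protein quality control. Its part in the Hspe1 value was not tested. Over the 16 livers the log2 CPM of Hspd1 had a Pearson r of 0.95 with Hspa9 and 0.32 with Hspe1, and within groups 0.92 and 0.07. The Hspd1 and Hspe1 genes overlap by 112 bases on opposite strands, and whether the counting used strand is unknown here, so reads in the overlap cannot be assigned with certainty.

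**Figure D3:**
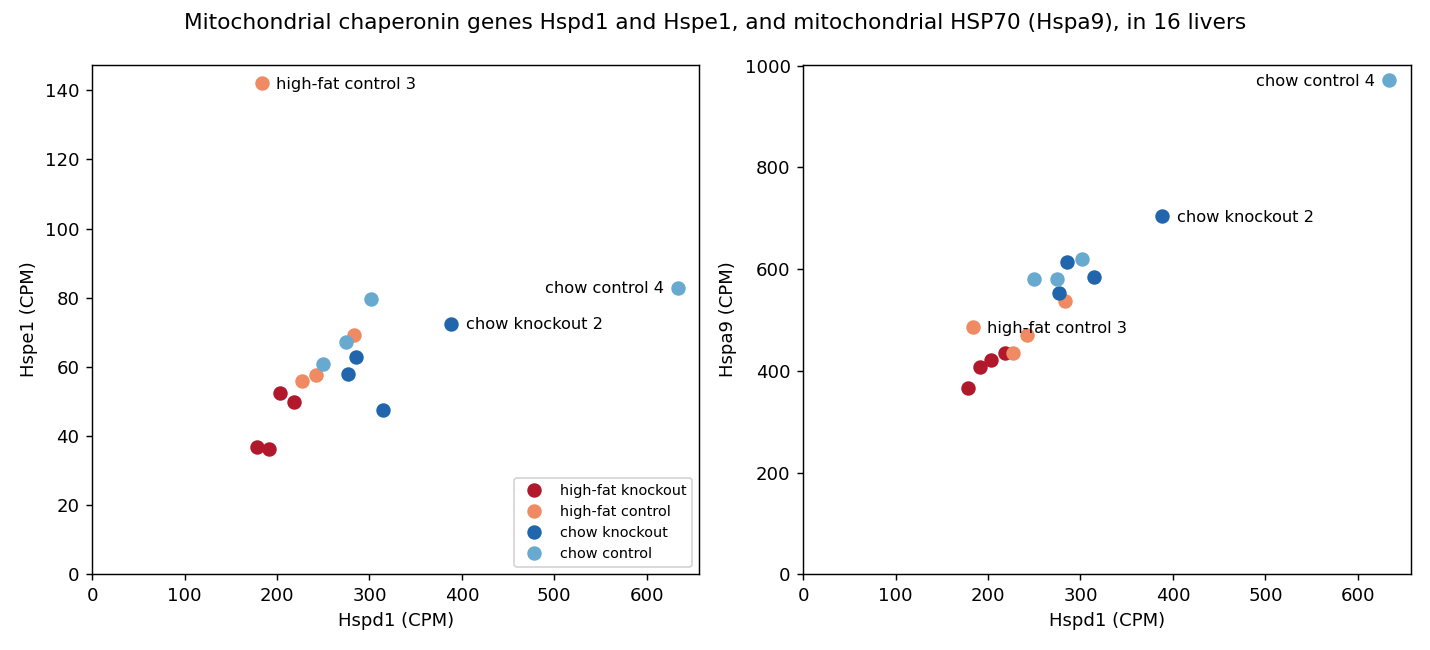
Each point is a liver, with Hspd1 in CPM on the x axis of both panels, Hspe1 in CPM on the left y axis and Hspa9 in CPM on the right y axis, coloured by group. Hspa9 rises with Hspd1 (r of 0.95 on log2 CPM), while Hspe1 follows it only weakly (r of 0.32). High-fat control 3 is the highest for Hspe1 at 142 CPM, and chow control 4 is the highest for Hspd1 and Hspa9 but not for Hspe1.

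High-fat diet in knockouts was the comparison in which genes of this set passed the test, and it was also the one with the most calls over all genes. Hspa1b and Hspa8 fell and 0 of 10 rose by edgeR, where 5.35% of all genes tested fell (748 rose and 768 fell). At an unadjusted p under 0.05, 7 of 10 were lower, against 14% of all genes: Bag3, Dnajb1, Hsp90aa1, Hspa1b, Hspa8, Hspd1 and Hsph1. Without chow knockout 2 this count was 3 of 10, against 10.1% of all genes, and the median of the 10 genes was -0.47. DESeq2 called 5 lower (Dnajb1, Hspa1b, Hspa8, Hspd1 and Hsph1), against 7.61% of all genes, and limma-voom 7 (Bag3, Dnajb1, Hspa1b, Hspa8, Hspd1, Hspe1 and Hsph1), against 15.1%. In 3 genes (Hspa1b, Hspa8 and Hspd1) all high-fat knockouts were below all chow knockouts, which held for 12.4% of all genes. The median log2 fold change of the 10 genes was -0.72, beside 0.02 for all genes tested. The scaling matters here: the TMM factors were 1.11 to 1.21 in high-fat knockouts and 0.859 to 0.963 in chow knockouts. With libraries scaled by total counts alone the median of all genes moved by 0.34 to 0.36, 3138 genes rose and 182 fell, and the median of the 10 genes was -0.38. Hspa1b (-2.05, adjusted p = 0.0131) and Hspa8 (-0.62, adjusted p = 0.0467) were still called by edgeR.

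High-fat knockouts had the lowest liver of the 16 for 5 of the 10 genes, against 21.6% of all genes tested. The knockouts on high-fat diet showed no called gene against controls on the same diet: 0 of 10 passed the test by edgeR (0.111% of all genes) and 0 of 10 by limma-voom (2%). At an unadjusted p under 0.05, Hspa8 and Hspe1 were lower, against 12.8% of all genes, and DESeq2 called Hspe1, against 2.56% of all genes lower. The groups did not overlap for Hspa8 and Hspe1, with the knockouts below, against 7.78% of all genes. The median log2 fold change of the 10 genes was -0.35, beside 0.03 for all genes, and with total counts alone these were -0.14 and 0.23.

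On chow the knockout gave no call among the 10 genes by any rule. The counts were 0 of 10 by edgeR (0.0139% of all genes), 0 at an unadjusted p under 0.05 (9.52%), 0 by DESeq2 (0.348%) and 0 by limma-voom (0.0279%), and 0 genes had groups that did not overlap (6.34%). The log2 fold changes lay between -0.29 for Hspb1 and 0.83 for Hspa1b, with a median of 0.14, beside -0.01 for all genes. The direction of 4 genes rested on chow knockout 2: without it the log2 fold change was -0.06 for Hspa8 (0.26 with it), -0.12 for Hsph1 (0.28 with it), -0.07 for Dnajb1 (0.20 with it) and -0.41 for Hsp90aa1 (0.09 with it).

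High-fat diet in controls gave 0 of 10 calls by edgeR (1.83% of all genes), by DESeq2 (5.53%) and by limma-voom (5.5%). At an unadjusted p under 0.05, Hspa1a and Hspd1 were lower, against 7.09% of all genes, and the groups did not overlap for Hspa1a, against 4.01%. The median log2 fold change of the 10 genes was -0.22, beside 0.01 for all genes, and 8 of 10 values were below 0. Since high-fat diet in controls and knockout on chow share the chow controls, and the other comparisons likewise share groups in pairs, their values are given side by side and not compared by overlap.

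The interaction asks whether the knockout difference differs between diets. It had 0 of 10 calls by edgeR, where 0% of all genes were called and 1615 genes had an unadjusted p under 0.05, and 0 by DESeq2 (0.578%) and limma-voom (0.0627%). Hspa8 was lower at an unadjusted p under 0.05, against 5.89% of all genes. The largest interaction values were -1.40 ± 0.709 for Hspa1b (adjusted p = 0.467 by edgeR), -0.93 ± 0.463 for Hsph1 (0.461) and -0.91 ± 0.322 for Hspa8 (0.307). With no filter on low counts edgeR called the interaction of Hspa1b (-1.39, adjusted p = 0.0196) and of Hsph1 (-0.92, adjusted p = 0.032). The share of all genes called in that setting is not given here. With the filter, the fall of Hspa1b and Hspa8 with diet in knockouts is not shown to differ from the diet difference in controls.

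**Figure D4:**
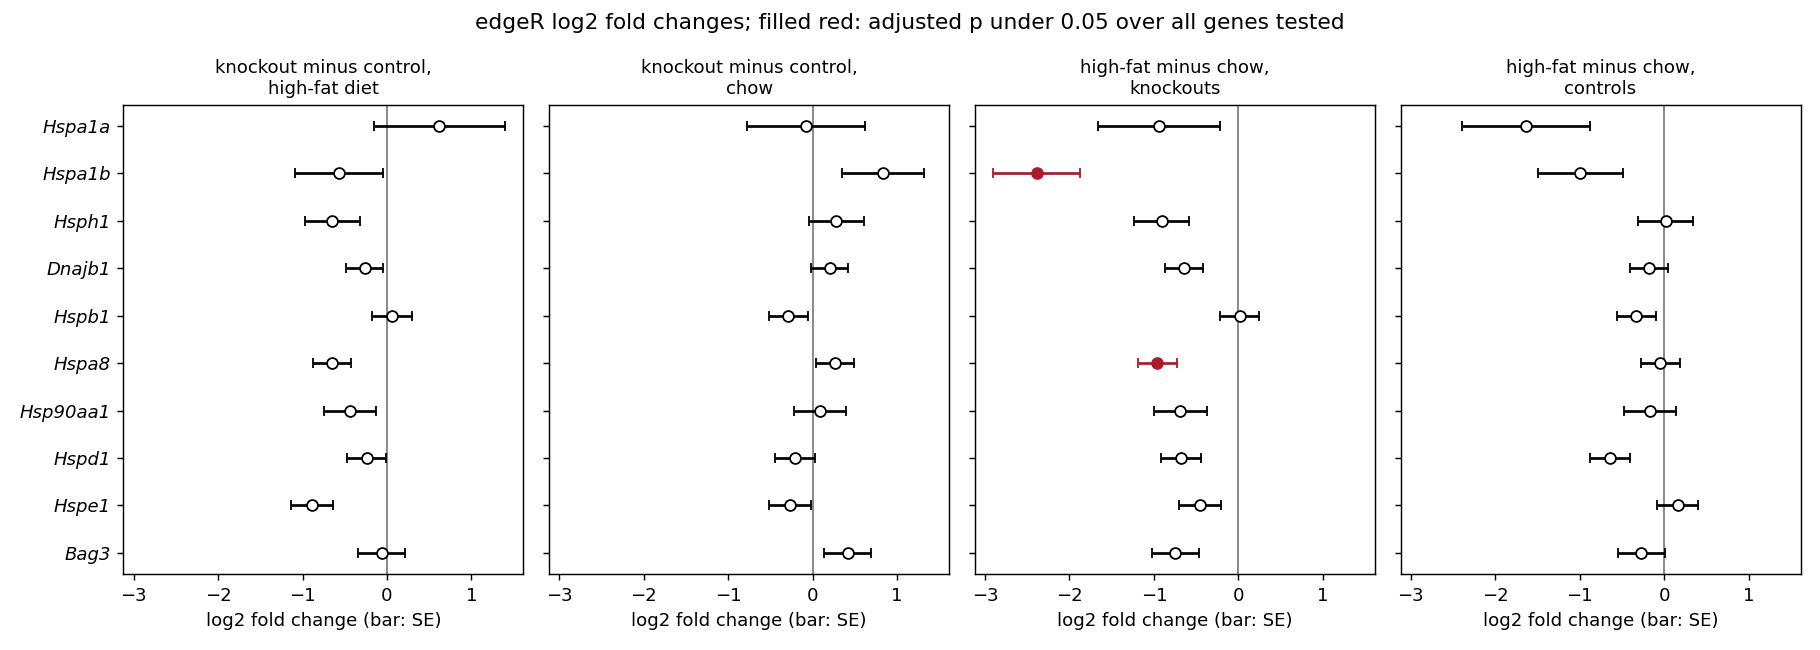
Points are edgeR log2 fold changes of the 10 genes in the 4 comparisons between groups, with bars for the SE, and filled red points have an adjusted p under 0.05 over all genes tested. The 2 red points are Hspa1b at -2.39 and Hspa8 at -0.96, both in high-fat diet in knockouts.

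How far the livers of a group differed varied between the genes. Chow knockout 2 was the highest of the 16 livers for 6 of the 10 genes, or 60%, against 7.38% of all genes tested, and in related lists it was the highest for 9 of 18 other J-domain genes, 6 of 15 ER chaperones, 4 of 14 TRiC and prefoldin genes, 4 of 18 HSP90 genes and 0 of 19 genes of mitochondrial protein quality control. Chow control 4 was likewise the highest for 6 of 15 ER chaperones. Averaged over the 10 genes, log2 CPM minus each gene's mean was 1.02 in chow knockout 2, and -0.43, 0.10 and 0.51 in chow knockouts 1, 3 and 4. It was -0.02, -0.55, -0.60 and -0.49 in high-fat knockouts 1 to 4, so high-fat knockout 1 stood nearer to the controls than to its own group. High-fat controls were between -0.24 and 0.06, and chow controls between 0.00 and 0.43. The SD of log2 CPM within groups was 0.83 for Hspa1b, larger than in 97.3% of 3216 genes of like level, and it was in the upper range also for Hsph1 (0.54, larger than in 96.7%) and Hsp90aa1 (0.51, larger than in 95.7%). It was 0.34 to 0.36 for Dnajb1, Hspb1, Hspa8 and Hspd1, larger than in 70% to 84% of genes of like level. Among all genes tested these were near the middle, larger than in 51.9% to 55.2%. For Hspa1a, Bag3 and Hspe1 it was larger than in 90.9%, 90% and 87.6% of genes of like level.

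Among themselves the 10 genes correlated with a median Pearson r of 0.47 over their 45 pairs and 16 livers, 0.33 without chow knockout 2 and 0.40 within groups. The highest were Hspa1b with Bag3 at 0.89 and Hspa1b with Dnajb1 at 0.87, and the lowest was Hspe1 with Bag3 at -0.10. These correlations share libraries and scaling and are given as a description. Among 9874 genes compared, the gene most like the mean of the 10 was Manf, a stress-induced factor secreted from the ER, with an r of 0.97 over 16 livers, 0.96 without chow knockout 2 and 0.98 within groups. Hspa5 (BiP), the HSP70 of the ER, followed at 0.94, then Ngdn at 0.93, Nol11 and Mis12 at 0.90, and Creld2, Nop58 and Crem at 0.89 to 0.90. Among those most opposite were Pdzrn3 at -0.91, Dhtkd1 at -0.88 and Hfe2 at -0.84. Manf had 54.0 ± 13.7 CPM in high-fat knockouts, 75.6 ± 10.9 CPM in high-fat controls, 100.3 ± 53.0 CPM in chow knockouts and 99.4 ± 11 CPM in chow controls (SD, n = 4 each).

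**Figure D5:**
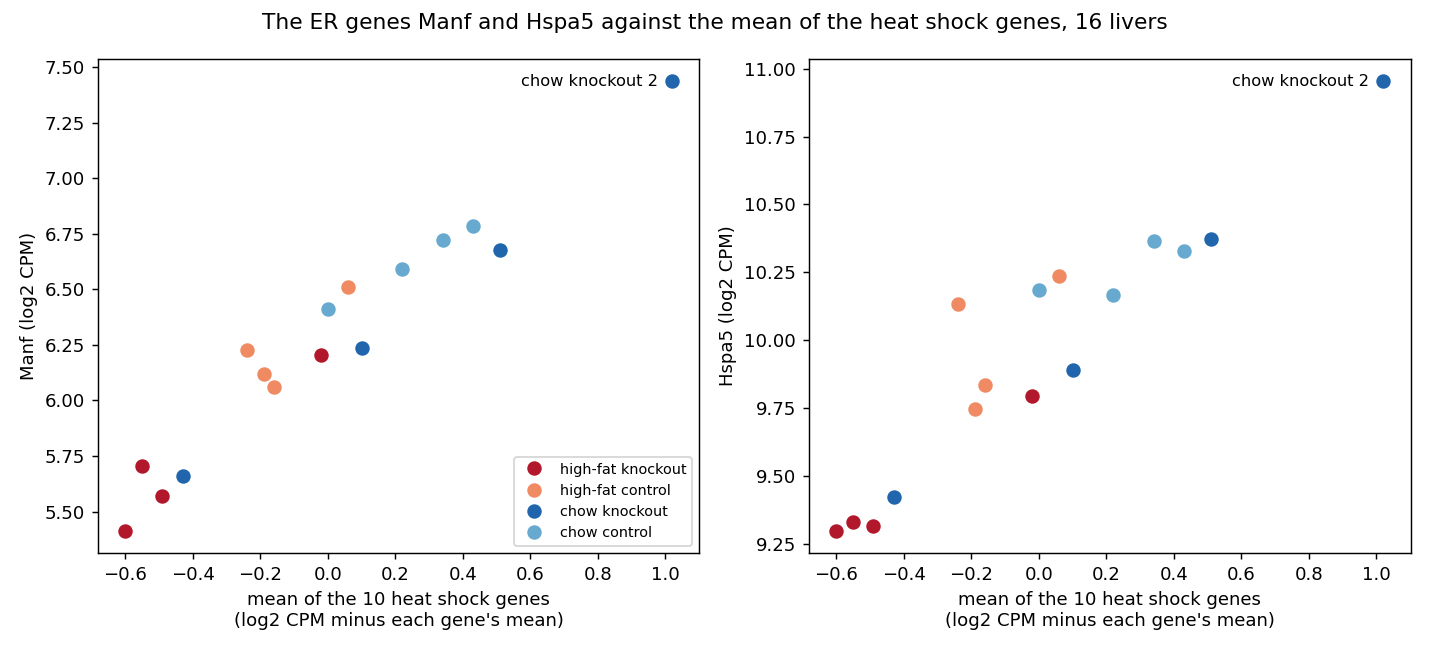
Each point is a liver, with the mean centred log2 CPM of the 10 heat shock genes on the x axis and the log2 CPM of Manf (left) or Hspa5 (right) on the y axis, coloured by group. Both genes rise along the axis, with an r of 0.97 for Manf and 0.94 for Hspa5, and chow knockout 2 is at the upper end of both panels.

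The rest of the chaperone network was described with lists of related genes, to be read beside the 5.35% of all genes tested that fell in high-fat knockouts against chow knockouts. In high-fat knockouts against chow knockouts, 2 of 8 other HSP70 genes tested fell: Hspa9 (-0.59 ± 0.160, adjusted p = 0.0279) and Hspa13 (-0.72 ± 0.187, adjusted p = 0.024, both by edgeR), an HSP70 of the microsomes. Of 18 J-domain genes Dnajb4 (-0.76) and Dnaja2 (-0.47) fell, and of 9 exchange and partner factors of HSP70 Bag4 (-0.60), Bag1 (-0.55) and St13 (-0.45) fell. Of 18 HSP90 and co-chaperone genes, Ptges3 (p23, -0.70), which stabilises client complexes of HSP90, and Chordc1 (-0.69) fell. Of 14 genes of the cytosolic chaperonin TRiC and of prefoldin, which fold actin and tubulin, Cct5 (-0.69), Cct8 (-0.47), Cct2 (-0.45) and Tcp1 (-0.55) fell, and all 14 had a fold change below 0 (11 of 14 with total counts alone). Of 19 genes of mitochondrial protein quality control, Hspa9 and the protease Yme1l1 (-0.56) fell. Of 15 ER chaperone genes, Dnajb9 (-1.36), Canx (-0.49), Hspa5 (-0.82), Pdia3 (-0.60) and Manf (-0.90) fell. None of these lists held a gene that rose under TMM scaling. The list medians were -0.14 for the other HSP70 genes, -0.23 for J-domain genes, -0.21 for exchange factors, -0.15 for HSP90 genes, -0.46 for TRiC and prefoldin, -0.21 for mitochondrial quality control and -0.49 for ER chaperones, beside 0.02 for all genes. Without chow knockout 2, only Bag4, Ptges3 and Dnajb9 of these lists fell, where 1.89% of all genes did. The list medians were then 0.04 for the other HSP70 genes, -0.15 for J-domain genes, -0.215 for exchange factors and -0.04 for HSP90 genes. They were -0.36 for TRiC and prefoldin, -0.20 for mitochondrial quality control and -0.36 for ER chaperones. These calls also depend on the scaling: with total counts alone Dnajb9 was the only gene of these lists that still fell, and Hspa12b, Sgta, Unc45a and Oma1 rose. Of all 14351 genes tested, 182 fell and 3138 rose with that scaling. The medians were then -0.12 for TRiC and prefoldin and -0.15 for ER chaperones, and above 0 for the other lists (0.20 for HSP70 genes, 0.11 for J-domain genes, 0.13 for exchange factors, 0.18 for HSP90 genes and 0.13 for mitochondrial quality control), beside 0.36 for all genes.

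Of 5 heat shock factors and regulators tested, 0 passed the test in any comparison under TMM scaling. With total counts alone Hsf1, Hsf4 and Ier5 rose with diet in knockouts, where 3138 of 14351 genes tested rose. Hsf1, the main driver of the stress-inducible genes, had 9.33 ± 1.18 CPM in high-fat knockouts, 8.37 ± 2.01 CPM in high-fat controls, 7.76 ± 1.20 CPM in chow knockouts and 8.51 ± 1.54 CPM in chow controls (SD, n = 4 each). Of 4 small heat shock genes tested other than Hspb1, 0 passed the test in any comparison. In the comparisons other than high-fat diet in knockouts, 0 genes of the chaperone lists passed the test. For knockout on high-fat diet, 12 of 14 TRiC and prefoldin genes and 9 of 19 mitochondrial quality control genes were lower at an unadjusted p under 0.05, where 12.8% of all genes were. The medians were -0.51 for TRiC and prefoldin and -0.28 for mitochondrial quality control, and with total counts alone -0.28 for TRiC and prefoldin and -0.07 for mitochondrial quality control. Without high-fat control 3, 5 of 14 TRiC and prefoldin genes (median -0.23) and 2 of 19 mitochondrial quality control genes (median -0.19) were lower at an unadjusted p under 0.05, where 5.68% of all genes were. The smallest p in these lists were those of Cct6a (-0.61, adjusted p = 0.107 by edgeR) and Yme1l1 (-0.56, adjusted p = 0.112 by edgeR).

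Other RNAs moved in the comparison in which Hspa1b and Hspa8 fell, where 748 of 14351 genes tested rose and 768 fell. Of 7 hepatocyte markers tested Alb fell (-1.0 ± 0.162, adjusted p = 0.00265 by edgeR), and the summed level of the list was 72666 to 91527 CPM in high-fat knockouts and 129173 to 156085 CPM in chow knockouts. Of 8 stellate and fibroblast markers Col1a1, Col3a1 and Pdgfrb rose, and the summed level of all 8 was 589 to 860 CPM in high-fat knockouts and 543 to 586 CPM in chow knockouts. Of 8 macrophage markers Cd68 rose (sums over the list of 263 to 498 CPM in high-fat knockouts and 237 to 383 CPM in chow knockouts), of 5 lymphocyte markers tested Cd8a rose (sums over the list of 4.22 to 18.8 CPM in high-fat knockouts and 3.55 to 5.56 CPM in chow knockouts), and of 6 erythroid markers Alas2 fell (sums of 220 to 260 CPM in high-fat knockouts and 182 to 444 CPM in chow knockouts). Neat1 and Malat1, which stay in the nucleus, both rose, with a sum of 3622 to 4322 CPM in high-fat knockouts and 786 to 1506 CPM in chow knockouts. With total counts alone Alb still fell and Alas2 passed the test no more. Of 16 immediate early genes Klf6 and Egr2 rose, while 7 had a fold change below 0 (median 0.07). Also below 0 were 7 of 7 hepatocyte markers, 6 of 6 erythroid markers, 3 of 8 macrophage markers, 2 of 8 stellate and fibroblast markers and 0 of 5 lymphocyte markers. The hepatocyte median was -0.51, and -0.16 with total counts alone. Without chow knockout 2, 0 macrophage markers, 0 lymphocyte markers and 0 of the nuclear RNAs rose. Their median log2 fold changes were then 0.30, 0.57 and 2.26, beside 0.33, 0.60 and 2.33 with it. In that fit 2 stellate and fibroblast markers and 1 immediate early gene rose, and 1 hepatocyte and 1 erythroid marker fell. Of all genes, 257 rose and 278 fell there. The pancreas marker Prss1 was at 0 in all livers. The part of these shifts in the values of the heat shock genes was not tested. The fit with Malat1 given above cannot tell Malat1 from diet in knockouts.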

How the data were processed

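Per the labels' protocols, liver total RNA was depleted with Ribo-Zero Gold and made into TruSeq Stranded libraries. The authors deposited raw counts per Ensembl gene for each of 16 livers, with no normalization. Per the submitters' processing notes, which assign no roles, the work used GRCm38 with featureCounts 1.5.1, STAR 2.5.4a and DESeq2. The sources used here do not say which gene models were counted, whether strand was used, or what was done with reads that map to several places. Symbols for 53706 of 53801 gene IDs came from a GENCODE annotation of the same build, and 215 of 216 symbols of the gene lists matched.

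Groups came from the sample titles, and no numbers pair the livers. Total counts ran from 11938596 to 23250885. Every p-value measures the spread between livers, and intervals and floors cover counting error only. Genes were filtered with filterByExpr (minimum count 10), scaled with TMM, and fitted with 1 term per group over all livers in edgeR 4.0.16 (R 4.3.3), with quasi-likelihood F tests, a common biological coefficient of variation of 0.247 and Benjamini-Hochberg adjustment. Each SE was taken as the size of the log2 fold change divided by the root of its F. Correlations use log2 CPM with a prior count of 2. The script was tested on simulated data.

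The text names the 10 genes, the called members of each chaperone list or else up to 3 with the smallest p, and the 8 genes most like and 4 most unlike their mean, some being left out for length and 1 not reported here. The called genes of the marker lists, and those called with total counts alone, were named after their values were seen. The genes and lists were chosen with earlier results of these data known. Alternatives were DESeq2 1.42.0, limma-voom (limma 3.58.1) with quality weights, RLE and upper-quartile factors, no filter, only the groups compared, each liver left out, high-fat control 3 and chow knockout 1 left out together, log2 Malat1 CPM as a covariate, and near-identical copies merged. Total counts as the scaling, and chow knockout 2 and chow control 4 left out together, were added after seeing the data.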

Additional observations from a re-analysis of the deposited data

Results flagged for a closer look

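In 6 of 44 groups of 4 livers, for the 10 genes and Degs1, a single liver lay farther from the others than Dixon's 95% criterion allows, which chance gives in about 1 in 20 groups. These were Hspa1b in high-fat knockout 1 at 4.263 CPM and Hsp90aa1 in high-fat knockout 1 at 135.2 CPM. Hspe1 was at 142.1 CPM in high-fat control 3. Hspb1 was at 22.8 CPM and Hspa8 at 818.9 CPM in chow control 3, and Hspd1 was at 634.3 CPM in chow control 4. In each case the liver was above the other 3 of its group. Without high-fat control 3 the knockout difference of Hspe1 on high-fat diet was -0.46 on the log2 scale, against -0.89 with it.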

How the results depend on the processing

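Of 1334 alternative fold changes of the 10 genes, 1240 kept their direction and their side of the threshold, 37 gained a call, 4 lost it and 53 changed sign. For high-fat diet in knockouts the calls were 2, and 5 by DESeq2, 7 by limma-voom, 7 with no filter, 4 with only the groups compared, 7 without high-fat control 3 and chow knockout 1, 1 with Malat1 as a covariate and 1 to 6 with a liver left out. The share of all genes that fell moved as well, from 5.35% to 7.61% by DESeq2 and 15.1% by limma-voom. It was 10.2% without high-fat control 3 (5 of the 10 genes) and 1.89% without chow knockout 2 (1 of the 10). The shares for the other settings are not given here. For knockout on high-fat diet they were 0, and 1 by DESeq2 and 3 with no filter. With no filter 2 were called for high-fat diet in controls and 2 for the interaction (Hspa1b and Hsph1). The cause was not tested. Hspa1b kept its call in high-fat diet in knockouts under every alternative run, with log2 fold changes of -2.75 to -2.05. Hspa8 lost the call there without chow knockout 2, without high-fat knockout 2, without chow knockout 2 and chow control 4, and with Malat1 as a covariate.

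No value had an adjusted p under 0.05 in the setting that changed its sign, and Hspe1 in high-fat diet in knockouts, which changed sign with Malat1, was called lower in 3 other alternatives, limma-voom among them. For knockout on chow, without high-fat control 3 and chow knockout 1, Hspa1a was at 0.317 (0.109 with Malat1). Without chow knockout 2 and chow control 4, Hsph1 was at -0.313, Dnajb1 at -0.197, Hspa8 at -0.086, Hsp90aa1 at -0.347 and Hspd1 at 0.097 (0.011 by limma-voom). For knockout on high-fat diet, Bag3 was at 0.137 with total counts. For high-fat diet in controls, Hsph1 was at -0.008 with Malat1 and -0.157 without chow knockout 2 and chow control 4. Hspa8 was at 0.005 with upper-quartile factors, 0.148 with Malat1 and 0.056 with total counts. Hsp90aa1 was at 0.077 and Hspe1 at -0.155 by limma-voom, and Hspe1 at -0.253 without high-fat control 3 and chow knockout 1. For high-fat diet in knockouts, Hspb1 was at -0.091 without those livers and Hspe1 at 0.128 with Malat1. The interaction of Hspd1 was 0.010 with upper-quartile factors and 0.185 with total counts.

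With each liver left out in turn the fold changes that changed sign ran as follows. For knockout on chow they were -0.546 to 0.311 for Hspa1a, -0.117 to 0.524 for Hsph1, -0.074 to 0.375 for Dnajb1, -0.457 to 0.007 for Hspb1, -0.064 to 0.422 for Hspa8, -0.406 to 0.330 for Hsp90aa1 and -0.345 to 0.211 for Hspd1. For knockout on high-fat diet they were -0.013 to 1.151 for Hspa1a, -0.069 to 0.151 for Hspb1 and -0.205 to 0.176 for Bag3. For high-fat diet in controls they were -0.214 to 0.272 for Hsph1, -0.193 to 0.074 for Hspa8 and -0.253 to 0.331 for Hspe1. For high-fat diet in knockouts they were -0.102 to 0.203 for Hspb1. For interaction of knockout and diet they were -0.455 to 0.101 for Hspd1.

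No paired analysis was possible because no replicate number in the labels pairs livers across groups. Hspa1a has no value of its own with copies merged, and the interaction none with only the groups compared. Depth limits Hspa1a, with 0 to 30 counts per liver.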
